A study of Mus musculus with 8 samples.

Results

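The genes described here are 9 markers of megakaryocytes and platelets, chosen by name from 34199 genes in the count files: the chemokines Pf4 and Ppbp, the adhesive protein Vwf, the integrin chains Itga2b and Itgb3, and the glycoproteins Gp1ba, Gp1bb, Gp5 and Gp9. The rule used no measured value, although the list was drawn up with earlier results of these data known. Reads of 8 of the 9 were found, and 7 had enough of them to be tested, among 13080 genes that passed a filter on low counts. RNA sequencing was carried out on immortalised granulocyte-macrophage progenitors (iGMPs), mouse bone marrow cells held in self-renewal by HOXA9 fused to the estrogen receptor ligand-binding domain. All 8 libraries came from this C57Bl/6 line with its lysozyme-GFP reporter, grown with stem cell factor, in 4 groups of 2 libraries. Uninduced cells (labelled t0) grew with 150 ng/ml estradiol and were taken at 0 h. CAF-1 OFF cells had 500 micromolar IPTG for 48 h, still with estradiol, to induce a short hairpin RNA against Chaf1b, a subunit of the histone chaperone CAF-1. HOXA9 OFF cells spent 48 h in medium without estradiol. IPTG control cells were collected after 48 h with IPTG, at a dose that the labels leave out, and the labels name no withdrawal of estradiol for them. In the study the hairpin lines were clonal, and its supplement speaks of independent sub-clones behind the RNA-seq of these groups, IPTG control not named. The labels do not say which clone or vector a library came from, so p-values measure only the spread between these libraries.

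Megakaryocytes are the large bone marrow cells that shed platelets, and they arise near the erythroid lineage rather than from granulocyte-macrophage progenitors. They store chemokines and von Willebrand factor in alpha granules, which platelets release on activation. At the surface, the integrin of CD41 and CD61 (Itga2b and Itgb3) binds fibrinogen and lets platelets aggregate, and the glycoprotein Ib-IX-V complex holds platelets to von Willebrand factor on an injured vessel wall. Itgb3 also pairs with Itgav, in many cell types.

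Between 14044284 and 22423837 reads were assigned to genes per library, and 3 counts, taken as the detection floor, equalled 0.128 to 0.212 CPM (counts divided by the TMM-scaled library size, as edgeR's cpm gives them). Floors and the intervals of counts and shares cover counting error only. Chaf1b was at 96.8 and 100.2 CPM in uninduced, 95.04 and 101.6 in IPTG control, 18.7 and 9.72 in CAF-1 OFF and 48.3 and 41.0 in HOXA9 OFF cells, so the target was lowest in the libraries labelled as its knockdown. All 6 progenitor markers fixed for the labelled cell type (Cd34, Flt3, Kit, Mpo, Prtn3 and Ctsg) lay above the floor in every library. Their summed level was 10399 to 14076 CPM in uninduced, 14438 to 14963 in CAF-1 OFF and 5130 to 6818 in HOXA9 OFF cells. Mpo was the largest part, at 6445 and 3986 CPM in uninduced and 7744 and 7803 in CAF-1 OFF cells. Against uninduced cells 0 of the 6 were called in CAF-1 OFF (median log2 fold change 0.01). In HOXA9 OFF 4 were called lower (median -1.84), where 22.1% of all tested genes were. Prtn3 was at 1820 and 1409 CPM there, against 1450 and 943 in uninduced cells. The 8 neutrophil markers summed to 94.8 to 98.7 CPM in the 4 uninduced and IPTG control libraries, 1280 and 2217 in CAF-1 OFF and 9048 and 6155 in HOXA9 OFF cells, with at least 7 of 8 above the floor in every library. Of the 8, 6 were called higher than in uninduced cells in CAF-1 OFF and 8 in HOXA9 OFF (median log2 fold changes 3.01 and 9.85), where 10.5% and 25.2% of all tested genes were, and their part in the member values was not tested. The chi-square per degree of freedom between the 2 libraries of a group, over genes with at least 10 counts in both together, was 78.2 in HOXA9 OFF and 16.6 to 23.8 in the other groups. Members that rest on HOXA9 OFF replicate 2 are given without it.

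In CAF-1 OFF cells 4 of the 7 tested members were higher than in uninduced cells, Pf4, Itga2b, Itgb3 and Gp9, and none was lower. A call needed an adjusted p (FDR) under 0.05 in edgeR's quasi-likelihood test over all 13080 genes and a change of at least 1.5-fold. By the same rule 10.5% of all tested genes were called higher and 3.50% lower. These shares depended on single libraries. Without uninduced replicate 1, 2 members and 1.01% of all genes were called higher, without uninduced replicate 2, 2 members and 3.93%, and without CAF-1 OFF replicate 2, 3 members and 1.83%. With all libraries the median log2 fold change was 2.45 over the 7 members and 0.01 over all tested genes. In HOXA9 OFF cells 6 of the 7 members were higher than in uninduced cells, all but Pf4, where 25.2% of all tested genes were called higher and 22.1% lower. The median was 2.09 over the members and 0.01 over all genes. Without HOXA9 OFF replicate 2, only 4 members were called in that comparison, Itga2b, Itgb3, Gp1ba and Gp9, and the member median was 1.48. Without uninduced replicate 2, only Itga2b and Itgb3 were called. Of all genes tested, 22.9% and 21.4% were called higher in these fits. In bulk libraries, more cells of a type and more RNA per cell cannot be told apart.

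**Figure D1:**
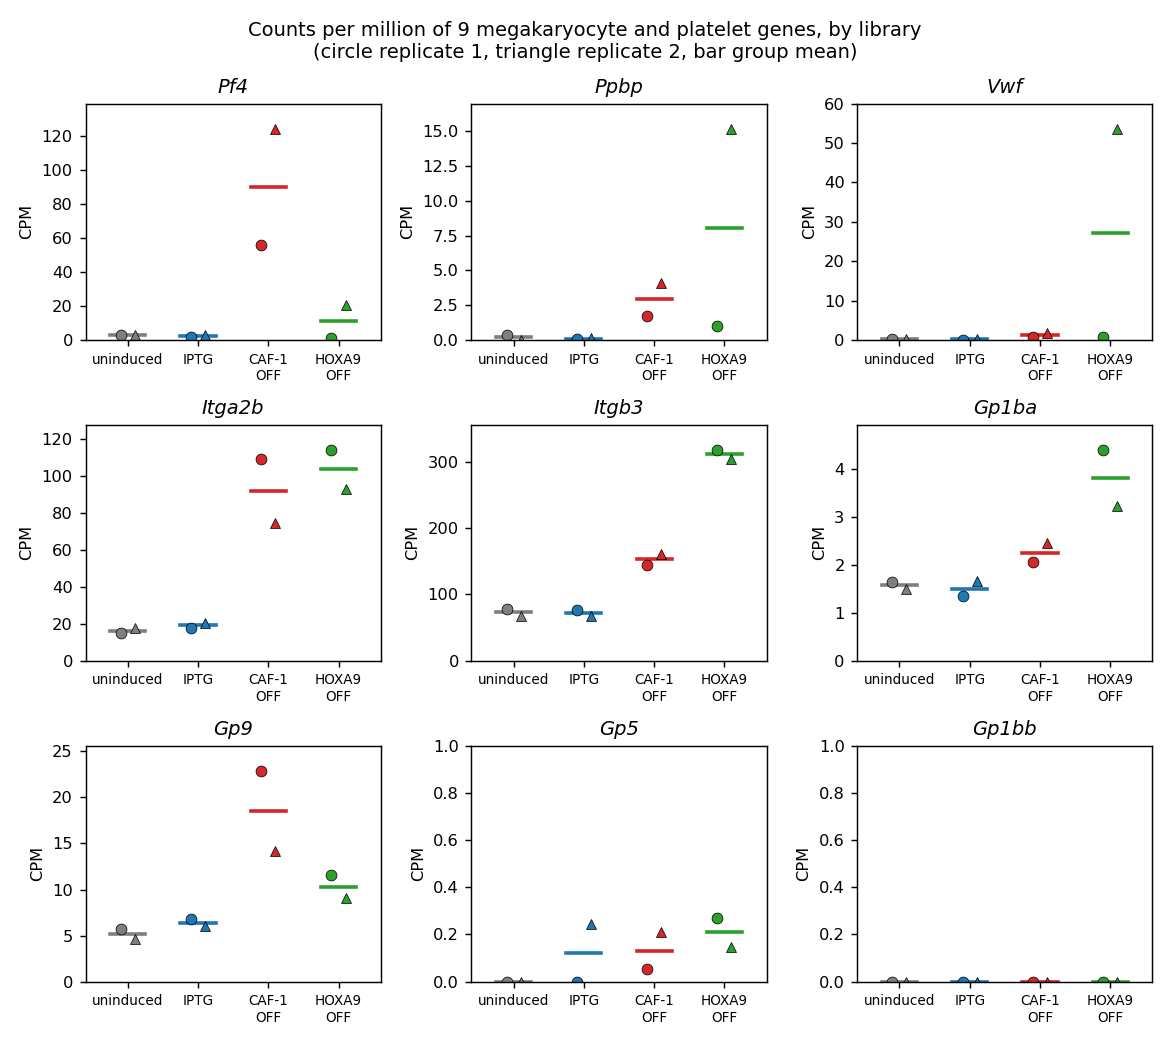
CPM of each gene (vertical axis, linear from 0) in the 8 libraries, with circles for replicate 1, triangles for replicate 2 and a bar at the group mean. Pf4 was highest in both CAF-1 OFF libraries, at 55.7 and 124 CPM, whereas the HOXA9 OFF means of Vwf and Ppbp rest on replicate 2, and Gp5 and Gp1bb lay near or at 0.

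Pf4 (platelet factor 4) is a CXC chemokine of the alpha granule that binds heparin. It stood at 2.67 and 3.04 CPM in uninduced cells, with 1.91 and 2.697 in the IPTG control. After CAF-1 knockdown it reached 55.7 and 124 CPM, and without HOXA9 activity 1.25 and 20.8. Both CAF-1 OFF libraries lay above every other library, and the 2 HOXA9 OFF libraries lay on either side of the uninduced ones. The counts behind the CAF-1 OFF values were 1059 and 2380, so counting error (95% Poisson intervals 52.4 to 59.2 and 119 to 129 CPM) was far smaller than the gap between the replicates. The log2 fold change in CAF-1 OFF against uninduced cells was 4.98 ± 1.06 (SE, n = 2 libraries per group), which passed the threshold in edgeR's quasi-likelihood test (FDR 0.0192). The FDR rose to 0.119 without CAF-1 OFF replicate 2, 0.130 without uninduced replicate 1 and 0.0977 without uninduced replicate 2, with log2 fold changes between 4.28 and 5.07. In HOXA9 OFF against uninduced cells the log2 fold change was 1.96 ± 0.99 and did not pass (edgeR FDR 0.128). It was 2.86 without HOXA9 OFF replicate 1 (edgeR FDR 0.00126) and -1.19 without replicate 2 (edgeR FDR 0.162), so its sign turned on the library left out.

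Ppbp (pro-platelet basic protein), the precursor of a neutrophil-attracting chemokine, is the neighbour of Pf4. It was at 0.356 and 0 CPM in uninduced, 0.0706 and 0.123 in IPTG control, 1.74 and 4.08 in CAF-1 OFF and 0.976 and 15.2 in HOXA9 OFF cells. Those levels rest on 8 and 0, 1 and 2, 33 and 78, and 18 and 306 counts, and every library of both induced groups lay above all 4 others. Against uninduced cells the log2 fold change was 4.0 ± 1.47 in CAF-1 OFF (edgeR FDR 0.0922, not called) and 5.47 ± 1.49 in HOXA9 OFF cells (edgeR FDR 0.0146, called). Neither call was stable. The CAF-1 OFF change passed by DESeq2 (adjusted p = 0.00813), by the edgeR exact test (FDR 0.0398), with no filter on low counts (edgeR FDR 0.0393) and in a fit of only these 2 groups (edgeR FDR 0.0297). It also passed without HOXA9 OFF replicate 1 (edgeR FDR 0.0185) or replicate 2 (edgeR FDR 0.0245), and the HOXA9 OFF change failed without HOXA9 OFF replicate 2 (log2 2.43, edgeR FDR 0.122) or uninduced replicate 2 (log2 4.48, edgeR FDR 0.079).

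Vwf encodes von Willebrand factor, which endothelial cells also make. It was at 0.267 and 0.214 CPM in uninduced, 0.0706 and 0.245 in IPTG control, 0.842 and 1.83 in CAF-1 OFF and 0.651 and 53.6 in HOXA9 OFF cells, from 12 counts in HOXA9 OFF replicate 1 and 1081 in replicate 2. A single library thus held the high value. The log2 fold change of 6.78 ± 1.80 in HOXA9 OFF against uninduced cells (edgeR FDR 0.0132) fell to 1.42 without HOXA9 OFF replicate 2 (edgeR FDR 0.213), and its FDR was 0.083 without uninduced replicate 1 and 0.0864 without uninduced replicate 2. In CAF-1 OFF cells the log2 fold change was 2.45 ± 1.84 (edgeR FDR 0.373, not called). It passed with a log2 value of 2.44 when HOXA9 OFF replicate 1 (edgeR FDR 0.0159) or replicate 2 (edgeR FDR 0.0397) was left out, and in a fit of only these 2 groups (edgeR FDR 0.0319). Of 6 endothelial markers, 2 were above the floor in both CAF-1 OFF libraries and 0 in any other library. Their summed level was 1.79 and 4.08 CPM in CAF-1 OFF and at most 0.133 in the other 6 libraries, and Tek, Emcn and Robo4 were at 0 throughout. Their part in the Vwf values was not tested.

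Beside the 3 granule genes, the HOXA9 OFF replicates also differed in macrophage markers. The 8 markers summed to 1008 CPM in replicate 1 and 1653 in replicate 2, against 27.7 to 53.8 in uninduced, 27.0 to 54.5 in IPTG control and 50.5 to 79.3 in CAF-1 OFF cells, and 5 of 8 lay above the floor in replicate 1 and 7 of 8 in replicate 2. The complement gene C1qb was at 0.434 and 121 CPM, C1qa at 0 and 4.41, and Cd68, a lysosomal protein of macrophages, at 47.2 and 234. Csf1r, the receptor for macrophage colony-stimulating factor, was at 465 and 853 CPM, and Emr1 (F4/80) at 493 and 436, so this marker did not follow the others. The ratio of replicate 2 to replicate 1 was 82.3 for Vwf, 16.7 for Pf4 and 15.5 for Ppbp, and between 0.733 and 0.957 for Itga2b, Itgb3, Gp1ba and Gp9. A gap of over 4-fold between these 2 libraries was found in 2.34% of all tested genes, against 0.764% between the CAF-1 OFF libraries. The part of the macrophage markers in the granule gene values was not tested.

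**Figure D2:**
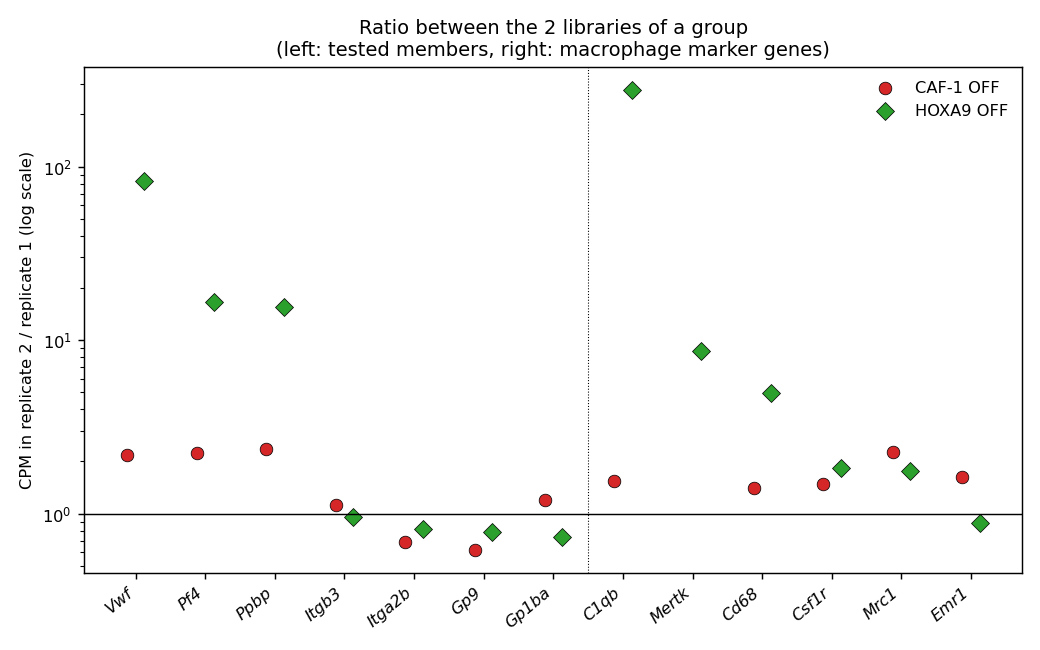
Ratio of CPM in replicate 2 to replicate 1 (log axis) within CAF-1 OFF (circles) and HOXA9 OFF (diamonds), for the 7 tested members on the left and macrophage marker genes on the right; genes at 0 in a library are not drawn. Vwf at 82.3, Pf4 at 16.7 and Ppbp at 15.5 stand far above 1 in HOXA9 OFF cells, as does C1qb at 278, while the integrin and glycoprotein genes stay near 1.

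Pf4 and Ppbp lie on chromosome 5 (mm9, GENCODE vM1), both on the plus strand, Ppbp at chr5:91197544-91199086 and Pf4 at chr5:91201461-91202407, with 2374 bases between them. Their counts kept a different proportion in the 2 induced states. Pf4 took 97.0% (exact 95% binomial interval 95.8 to 97.9) and 96.8% (96.1 to 97.5) of the reads of the pair in the CAF-1 OFF libraries, and 56.1% (39.8 to 71.5) and 57.8% (54.2 to 61.5) in the HOXA9 OFF libraries. The 2 replicates of each state gave like proportions although their levels differed, and the intervals, which leave out any spread between libraries beyond counting, were not used as a test. Per kb of exon, Pf4 was 59.1 and 56.2 times the level of Ppbp in CAF-1 OFF and 2.35 and 2.53 times in HOXA9 OFF cells. The shares of 88.2% and 100% in uninduced and 96.4% and 95.7% in IPTG control cells rest on 8, 0, 1 and 2 Ppbp reads.

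The 250 bases before the RefSeq start of both neighbours are shown because the proportion of the 2 genes differed between the induced states. They were read in GRCm38.p6, not converted to mm9, and capitals mark matches to 5 motifs searched on both strands, namely the GATA motif TGATAA with its variant AGATAA, the ETS motif AGGAAG with its variant CGGAAG, and the RUNX motif TGTGGT. No matches overlapped.
Pf4, chr5:90772185-90772434, plus strand: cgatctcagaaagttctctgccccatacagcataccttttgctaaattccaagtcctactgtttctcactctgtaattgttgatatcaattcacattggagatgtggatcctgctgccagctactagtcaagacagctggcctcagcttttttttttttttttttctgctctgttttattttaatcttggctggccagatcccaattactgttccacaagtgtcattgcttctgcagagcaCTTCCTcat
Ppbp, chr5:90768268-90768517, plus strand: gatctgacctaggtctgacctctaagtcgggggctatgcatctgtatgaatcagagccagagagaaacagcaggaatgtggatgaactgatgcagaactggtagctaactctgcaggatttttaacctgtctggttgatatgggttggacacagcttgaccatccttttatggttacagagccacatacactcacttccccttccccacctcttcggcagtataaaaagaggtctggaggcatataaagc
The Pf4 window held 1 match, AGGAAG on the opposite strand starting 9 bases before the start site, and the Ppbp window held none. RefSeq promoters matched 7 of the 9 members, without Vwf and Itgb3, and AGGAAG was present in 5 of these 7 windows (Pf4, Itga2b, Gp1ba, Gp5 and Gp9) and in 29.2% of 27025 windows of the same length. A GATA motif was present in Gp1ba and Gp5 and in 17.0% of all windows, CGGAAG in Gp1bb and in 13.8%, and TGTGGT in Gp9 and in 14.2%.

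The other chemokine genes of the same cluster are, in chromosomal order, Cxcl5 upstream of Ppbp and then Cxcl3, Cxcl15, Cxcl1 and Cxcl2 downstream of Pf4, over 146611 bases. Cxcl3, 12721 bases downstream of Pf4 and a chemoattractant for neutrophils, had 0 and 2 counts in uninduced, 0 and 0 in IPTG control, 470 and 1749 in CAF-1 OFF and 3 and 31 in HOXA9 OFF cells. That is 24.7 and 91.4 CPM in the CAF-1 OFF libraries, at least 435-fold above 3 counts in the smaller uninduced library (edgeR FDR 0.00717, and 0.0717 without uninduced replicate 1). Cxcl2, at the far end, was at 0.356 and 0 CPM in uninduced, 2.95 and 5.43 in CAF-1 OFF and 0.868 and 7.93 in HOXA9 OFF cells. Its log2 fold changes of 4.53 ± 1.29 (CAF-1 OFF, edgeR FDR 0.0447) and 4.60 ± 1.29 (HOXA9 OFF, edgeR FDR 0.0167) were both called. The second was lost without HOXA9 OFF replicate 2 (log2 2.26, edgeR FDR 0.128) or uninduced replicate 2 (edgeR FDR 0.0788), and the first was lost when any uninduced, CAF-1 OFF or IPTG control library was left out, with FDR from 0.0709 to 0.196. Cxcl15 was seen in CAF-1 OFF cells at 3 and 10 counts and in no other library, Cxcl5 at 1 count in each CAF-1 OFF library, and Cxcl1 was at 0 in all 8, which allows up to 3 counts per library. The cluster was thus not uniform: between Cxcl3 and Cxcl2, the gene Cxcl1 had no read where Pf4, Ppbp, Cxcl3 and Cxcl2 all had more in CAF-1 OFF than in uninduced libraries. Some 50-base windows of Cxcl3 (93.6% unique) and Cxcl2 (96.6% unique) also occur in transcripts of other genes, which leaves the counts of these 2 genes somewhat uncertain.

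**Figure D3:**
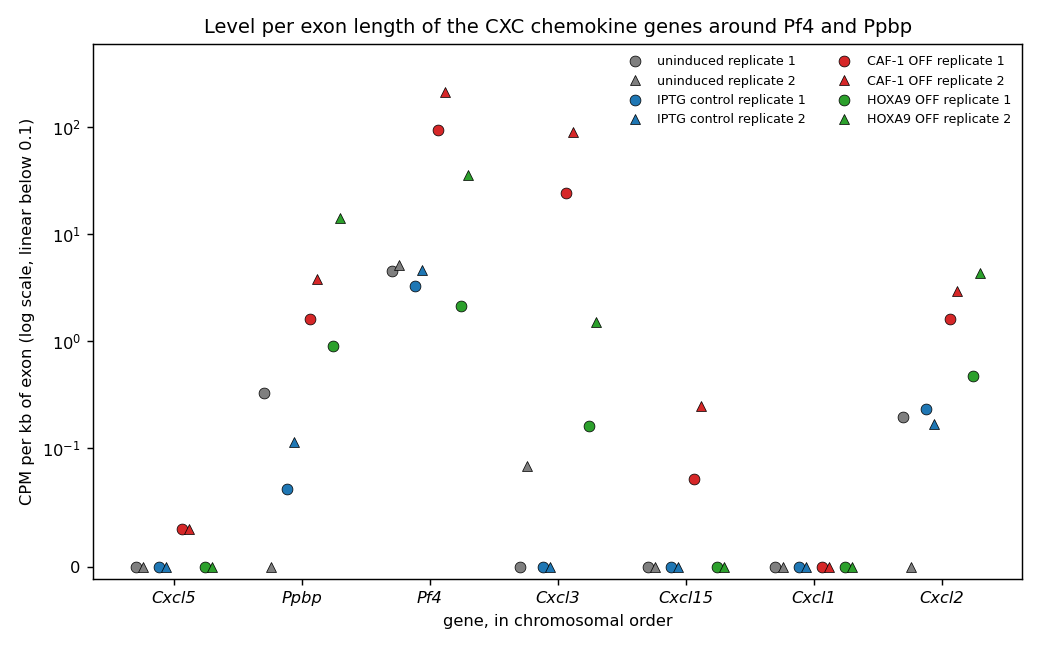
CPM per kb of exon (log axis, linear below 0.1) of the chemokine genes in chromosomal order, for each of the 8 libraries, coloured by group, with circles for replicate 1 and triangles for replicate 2. Pf4 and Cxcl3 are highest in CAF-1 OFF cells, Ppbp in HOXA9 OFF replicate 2, and Cxcl1 is at 0 in every library.

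Itga2b (CD41), the alpha chain of the fibrinogen receptor and an early marker of the lineage, lies at chr11:102314611-102331436 on the minus strand (mm9). It was at 14.9 and 17.5 CPM in uninduced, 17.8 and 20.5 in IPTG control, 109 and 74.5 in CAF-1 OFF and 114 and 93.2 in HOXA9 OFF cells. Both induced groups lay far above the other 4 libraries and overlapped each other. Relative to uninduced cells, the log2 fold change was 2.50 ± 0.21 in CAF-1 OFF (edgeR FDR 0.0019) and 2.68 ± 0.21 in HOXA9 OFF (edgeR FDR 4.44e-05), and both calls held in every alternative tried. AL596258.1, which overlaps the span of Itga2b without sharing an exon base, had 0 counts in all libraries. The 250 bases before its RefSeq start are given for comparison with Pf4, as the member that rose about alike in both states.
Itga2b, chr11:102469884-102470133, minus strand (GRCm38.p6): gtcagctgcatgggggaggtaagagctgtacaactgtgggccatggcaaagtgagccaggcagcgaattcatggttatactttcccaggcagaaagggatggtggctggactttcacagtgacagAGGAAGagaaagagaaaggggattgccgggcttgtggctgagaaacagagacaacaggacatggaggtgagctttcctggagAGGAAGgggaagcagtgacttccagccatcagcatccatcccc
This window held AGGAAG at 125 and 43 bases before the start, both on the strand of the gene.

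Itgb3 (CD61), the beta chain, was at 77.9 and 67.6 CPM in uninduced, 77.2 and 67.7 in IPTG control, 144 and 161 in CAF-1 OFF and 318 and 304 in HOXA9 OFF cells. CAF-1 OFF and HOXA9 OFF libraries overlapped neither each other nor the other 4, while uninduced and IPTG control libraries overlapped. Its log2 fold change was 1.07 ± 0.12 in CAF-1 OFF (edgeR FDR 0.00324) and 2.09 ± 0.12 in HOXA9 OFF cells (edgeR FDR 1.67e-05), held in every alternative. Itgav, the other alpha chain that Itgb3 pairs with, was at 43.4 and 52.9 CPM in uninduced, 66.2 and 64.8 in CAF-1 OFF and 74.1 and 87.2 in HOXA9 OFF cells. Its log2 fold change was 0.44 ± 0.14 in CAF-1 OFF (edgeR FDR 0.0646, not called) and 0.74 ± 0.14 in HOXA9 OFF cells (edgeR FDR 0.00302, called). Per kb, the alpha chain Itga2b was at 0.205 and 0.278 of the level of Itgb3 in uninduced, 0.247 and 0.324 in IPTG control, 0.811 and 0.496 in CAF-1 OFF and 0.385 and 0.329 in HOXA9 OFF cells. Both CAF-1 OFF libraries lay above all others, whereas HOXA9 OFF replicate 2 was about level with IPTG control replicate 2.

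Among the 4 genes of the glycoprotein Ib-IX-V complex, Gp9 and Gp1ba were tested and Gp5 and Gp1bb were too low. Gp9, the small subunit needed for surface display of the complex, was at 5.69 and 4.66 CPM in uninduced, 6.78 and 6.01 in IPTG control, 22.9 and 14.2 in CAF-1 OFF and 11.6 and 9.07 in HOXA9 OFF cells, with no overlap between any of the 4 groups. The log2 fold change was 1.84 ± 0.28 in CAF-1 OFF (edgeR FDR 0.00763) and 0.99 ± 0.28 in HOXA9 OFF cells (edgeR FDR 0.0165). Without uninduced replicate 1 or replicate 2 the CAF-1 OFF change missed the threshold narrowly (edgeR FDR 0.0583 and 0.0501), and the HOXA9 OFF change missed it without uninduced replicate 2 (edgeR FDR 0.097) or HOXA9 OFF replicate 1 (edgeR FDR 0.0677). Its RefSeq upstream window is shown because it carried 2 motif matches, AGGAAG 16 bases and TGTGGT 171 bases before the start, both on the opposite strand.
Gp9, chr6:87777820-87778069, plus strand (GRCm38.p6): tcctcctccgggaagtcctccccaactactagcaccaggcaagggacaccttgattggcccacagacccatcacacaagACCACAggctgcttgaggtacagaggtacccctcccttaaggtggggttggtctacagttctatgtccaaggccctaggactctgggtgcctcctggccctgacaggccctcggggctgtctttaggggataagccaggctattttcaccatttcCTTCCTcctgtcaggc

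Gp1ba, the subunit that binds von Willebrand factor, was at 1.65 and 1.496 CPM in uninduced, 1.34 and 1.66 in IPTG control, 2.05 and 2.46 in CAF-1 OFF and 4.39 and 3.22 in HOXA9 OFF cells. Its highest values were in HOXA9 OFF, the opposite order to Gp9. It was called in HOXA9 OFF cells (log2 1.27 ± 0.32, edgeR FDR 0.0108; not without uninduced replicate 2, edgeR FDR 0.0611, or HOXA9 OFF replicate 1, edgeR FDR 0.0624) and not in CAF-1 OFF cells (log2 0.52 ± 0.33, edgeR FDR 0.288). Gp5, a subunit cut by thrombin, had 0 and 0 counts in uninduced, 0 and 4 in IPTG control, 1 and 4 in CAF-1 OFF and 5 and 3 in HOXA9 OFF cells, near the floor throughout. Gp1bb, the beta subunit of glycoprotein Ib, had 0 counts in all 8 libraries, which allows up to 0.128 to 0.212 CPM. Of its exon bases 31.5% are shared with Sept5 on the same strand (mm9), and a read over shared exons is assigned to neither gene by HTSeq's default setting. Sept5 had 0 to 2 counts outside HOXA9 OFF cells and 23 and 11 within. By that setting these Sept5 reads fell outside the shared exon bases, so they say nothing of reads over Gp1bb.

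**Figure D4:**
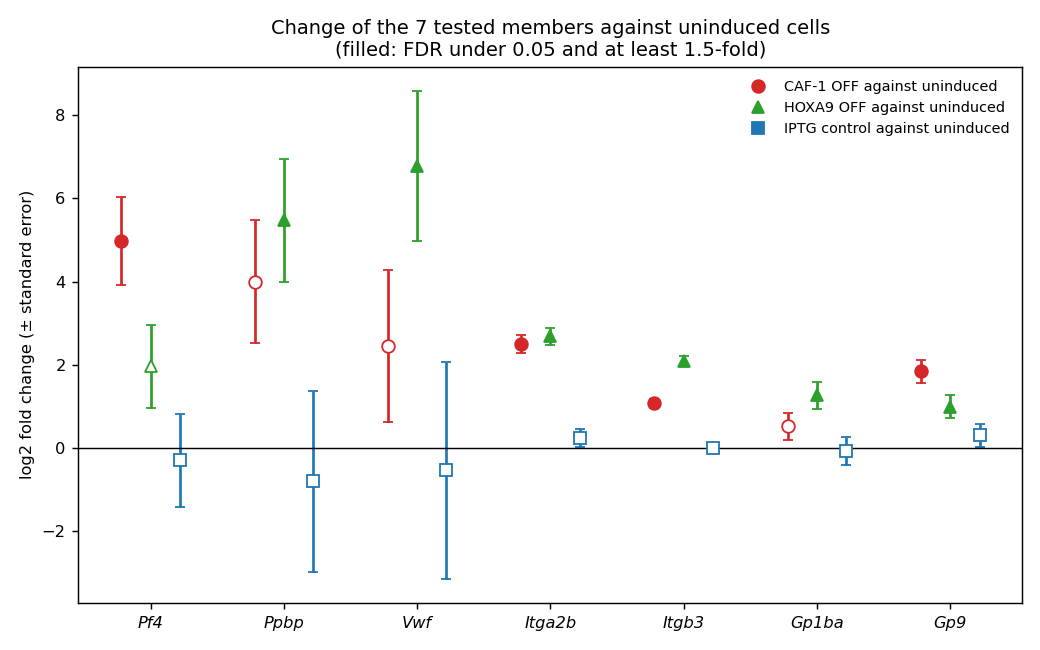
log2 fold change (vertical axis, ± standard error) of the 7 tested genes against uninduced cells in CAF-1 OFF (circles), HOXA9 OFF (triangles) and IPTG control (squares), filled where called. Itga2b stands at 2.50 and 2.68, Itgb3 at 1.07 and 2.09 with small errors, whereas Ppbp and Vwf have wide errors, and no IPTG control point is filled.

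IPTG control cells were also compared with uninduced cells. They differed in IPTG and time in culture, and the labels give no dose, clone or vector, so these cannot be told apart. Both IPTG control libraries lay above both uninduced ones for Itga2b and Gp9, and those of the other tested members overlapped. Of the 7 tested members, 0 were called against uninduced cells by edgeR's quasi-likelihood test, 0 had an unadjusted p under 0.05, and 0 were called by DESeq2 or the edgeR exact test, where 0% of all 13080 genes were called (100 at an unadjusted p under 0.05, and 5 called by DESeq2). The log2 fold changes ran from -0.80 for Ppbp to 0.30 for Gp9, with 95% intervals of -0.25 to 0.73 for Itga2b, -0.28 to 0.27 for Itgb3 and -2.90 to 2.30 for Pf4, so that a change of Pf4 within those bounds was not detectable. Against IPTG control cells, CAF-1 OFF cells were higher in Pf4 (log2 5.28 ± 1.11, edgeR FDR 0.0204), Itga2b (2.26 ± 0.21, edgeR FDR 0.00254), Itgb3 (1.07 ± 0.12, edgeR FDR 0.00362) and Gp9 (1.54 ± 0.28, edgeR FDR 0.014). These are 4 of 7 members, where 9.56% of all tested genes were called higher and 3.20% lower. Without IPTG control replicate 1, IPTG control replicate 2 or CAF-1 OFF replicate 2, 2, 2 and 3 members were called, and 1.64%, 1.15% and 1.59% of all genes tested were called higher. The CAF-1 OFF libraries are shared with the comparison against uninduced cells, so the 2 comparisons are not independent. The Pf4 call was lost without CAF-1 OFF replicate 2 (edgeR FDR 0.119), IPTG control replicate 1 (0.121) or IPTG control replicate 2 (0.116), and the Gp9 call without CAF-1 OFF replicate 1 (0.056), IPTG control replicate 1 (0.0809) or replicate 2 (0.097). Ppbp (log2 4.8, edgeR FDR 0.0883) and Vwf (log2 2.98, edgeR FDR 0.354) were not called, but passed when only these 2 groups were fitted (edgeR FDR 0.0102 and 0.0332) or when either HOXA9 OFF library was left out.

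The test between CAF-1 OFF and HOXA9 OFF cells, which is also the test of whether the 2 changes from uninduced cells differ, called 4 of the 7 members, 2 higher and 2 lower, where 22.2% of all tested genes were called higher and 21.4% lower. Pf4 was higher in CAF-1 OFF by 3.02 ± 0.95 on the log2 scale (edgeR FDR 0.0284), and by 6.16 without HOXA9 OFF replicate 2 (edgeR FDR 0.000223). The Pf4 call was lost without CAF-1 OFF replicate 2 (log2 2.33, edgeR FDR 0.146), uninduced replicate 1 (edgeR FDR 0.0507) or uninduced replicate 2 (edgeR FDR 0.0501), and when only these 2 groups were fitted (edgeR FDR 0.0954). Itgb3 was lower in CAF-1 OFF, at -1.03 ± 0.12 (edgeR FDR 0.000295), in every alternative. Gp9 was higher by 0.85 ± 0.27 (edgeR FDR 0.0307), by 0.46 without CAF-1 OFF replicate 1 and by 0.67 without HOXA9 OFF replicate 2. The Gp9 call was lost in both of those fits, and when only these 2 groups were fitted (edgeR FDR 0.0671). Vwf was called lower, at -4.34 ± 1.52 (edgeR FDR 0.0421), although its libraries overlapped, and the difference was 1.02 without HOXA9 OFF replicate 2 (edgeR FDR 0.338). The Vwf call was also lost when any single library of the other 3 groups was left out. With replicate number as a block in the fit it was lost too (log2 -3.26, edgeR FDR 0.0607), as in a fit of only these 2 groups (log2 -4.35, edgeR FDR 0.118). For Itga2b the difference was -0.18 with a 95% interval of -0.64 to 0.28, for Gp1ba -0.75 (-1.49 to -0.01, edgeR FDR 0.079) and for Ppbp -1.47 (-4.14 to 1.19).

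Compared per kb of exon, the order of the 7 tested genes changed between groups. In uninduced cells it ran from Itgb3 at 12.5 ± 1.25 CPM per kb (SD, n = 2) through Gp9 at 6.38 ± 0.90, Pf4 at 4.87 ± 0.44, Itga2b at 2.97 ± 0.34, Gp1ba at 0.448 ± 0.030 and Ppbp at 0.165 ± 0.233 to Vwf at 0.0150 ± 0.0023. The libraries of Ppbp overlapped those of Vwf, and the others did not overlap their neighbours. In IPTG control cells the order was the same, but the libraries of Pf4 and Itga2b overlapped. In CAF-1 OFF cells Pf4 came first at 154 ± 82.8, above Itgb3 at 26.1 ± 2.06, Gp9 at 22.9 ± 7.56, Itga2b at 16.8 ± 4.47, Ppbp at 2.69 ± 1.53, Gp1ba at 0.642 ± 0.081 and Vwf at 0.0831 ± 0.0434. There Gp9 overlapped both Itgb3 and Itga2b. In HOXA9 OFF cells Itgb3 led at 53.2 ± 1.66 and Itga2b followed at 19.0 ± 2.71, and Pf4 at 18.8 ± 23.6, Ppbp at 7.47 ± 9.29 and Vwf at 1.69 ± 2.33 had a spread larger than their mean, so their places are not set. Gp9 was at 12.7 ± 2.16 and Gp1ba at 1.09 ± 0.24.

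Within CAF-1 OFF cells, the members fell on different sides of the replicates. Replicate 2, with the lower Chaf1b level (9.72 against 18.7 CPM), had 2.23 times the Pf4, 2.35 times the Ppbp, 2.17 times the Vwf and 3.70 times the Cxcl3 of replicate 1. It had 0.683 times the Itga2b and 0.621 times the Gp9. Cpa3, a mast cell and basophil protease, was also lower in replicate 2, at 423 against 764 CPM. The 8 mast cell and basophil markers summed to 1055 and 661 CPM in CAF-1 OFF, 207.6 and 151 in uninduced, 203 and 142 in IPTG control and 169.6 and 224 in HOXA9 OFF cells, with 5 or 6 of 8 above the floor in every library and Mcpt4 at 0 in all. The 10 erythroid markers summed to 90.8 and 80.1 CPM in CAF-1 OFF, 44.1 and 47.7 in uninduced, 43.8 and 49.7 in IPTG control and 25 and 20.8 in HOXA9 OFF cells, with 5 of 10 above the floor in CAF-1 OFF cells, mostly from Tfr2, while Hba-a2 and Slc4a1 were at 0 in all. The 4 lymphoid markers summed to 17.2 and 16.6 CPM in CAF-1 OFF, 2.67 and 2.57 in uninduced, 2.12 and 3.31 in IPTG control and 3.85 and 8.28 in HOXA9 OFF cells, with 1 or 2 of 4 above the floor in every library. Most of this came from the B cell receptor component Cd79a, whose CAF-1 OFF levels were 15.5 and 15.3 CPM, and the T cell marker Cd3e was at 0 in all. The part of these cell types in the member values was not tested.

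The genes most like Pf4 over the 8 libraries, by Pearson correlation of log2 CPM, were Clec3a (r = 0.986), Aqp8 (0.984), Il2ra (0.983), Nicn1 (0.982) and Ang (0.981). All but Nicn1 were under 0.3 CPM in uninduced and IPTG control cells, and each was highest in CAF-1 OFF replicate 2, where Il2ra reached 3.03 CPM. The genes most like Itga2b were Abcb9 (r = 0.993), Gcnt2 (0.989), 2010012P19Rik (0.988), Mylip (0.988) and Acvr1b (0.988), which were about equally high in both induced states, as with Gcnt2 at 35.4 and 27.1 CPM in CAF-1 OFF and 44.6 and 28.6 in HOXA9 OFF cells. These are the highest of 13080 values over only 8 libraries in 4 groups, and are given as a description.

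Of 21 other platelet surface genes, 16 were tested, and 6 were higher and 0 lower in CAF-1 OFF than in uninduced cells (median log2 fold change 1.14), where 10.5% of all genes were higher and 3.50% lower. Fewer of the 16 were called higher when either uninduced library or CAF-1 OFF replicate 2 was left out, and fewer of all genes were as well. F2rl3, a thrombin receptor, moved in opposite directions, from 14.1 and 12.4 CPM to 39.2 and 30.4 in CAF-1 OFF and 1.68 and 1.98 in HOXA9 OFF cells (edgeR FDR 0.00568 and 3.24e-05). The granule membrane protein Selp (P-selectin), at 0.133 and 0.128 CPM in uninduced cells, reached 0.947 and 2.56 in CAF-1 OFF and 1.79 and 1.44 in HOXA9 OFF cells, at least 13.1-fold and 12.1-fold above 3 counts (edgeR FDR 0.0167 and 0.0044). The tetraspanin Cd9 (log2 1.82 ± 0.37, edgeR FDR 0.0171), the adhesion molecule Pecam1 (log2 0.61 ± 0.12, edgeR FDR 0.0169) and the thrombospondin receptor Cd36, from 0 counts to 0.473 and 1.31 CPM (at least 6.67-fold, edgeR FDR 0.0445), were also called higher in CAF-1 OFF. In HOXA9 OFF cells 7 of the 16 were higher and 2 lower, against 25.2% and 22.1% of all genes. The median was 1.11, and 0.51 without HOXA9 OFF replicate 2. Collagen receptor Gp6 and Treml1 were at or under the floor in every library.

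Of 14 other alpha-granule genes 11 were tested, 4 being higher and 0 lower in CAF-1 OFF (median 0.37), and 5 higher and 1 lower in HOXA9 OFF (median 0.71, and 0.42 without HOXA9 OFF replicate 2). The shares over all genes were 10.5% and 3.50% in CAF-1 OFF and 25.2% and 22.1% in HOXA9 OFF cells. In CAF-1 OFF fewer of the 11 were higher without either uninduced library or CAF-1 OFF replicate 2, and fewer of all genes were as well. Thrombospondin-1 (Thbs1), the most abundant of the 4, rose from 1503 and 1524 CPM to 3024 and 3621 in CAF-1 OFF and 10147 and 8140 in HOXA9 OFF cells (edgeR FDR 0.00584 and 1.94e-05). Coagulation factor V (F5) went from 0 counts in both uninduced libraries to 1.16 and 2.98 CPM in CAF-1 OFF and 2.11 and 0.744 in HOXA9 OFF cells, at least 15.5-fold and 10.7-fold (edgeR FDR 0.0173 and 0.00579). Clusterin (Clu) was higher in CAF-1 OFF (log2 1.52 ± 0.28, edgeR FDR 0.0136) and lower in HOXA9 OFF cells (log2 -1.54 ± 0.30, edgeR FDR 0.00305). The growth factor chain Pdgfb was higher in CAF-1 OFF (log2 2.16 ± 0.57, edgeR FDR 0.0355) and was not called in HOXA9 OFF cells (log2 -1.20 ± 0.68, edgeR FDR 0.167).

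Genes that switch integrins on and build the platelet skeleton are read here against 10.5% of all genes called higher in CAF-1 OFF and 25.2% in HOXA9 OFF cells. Of 10 integrin activation genes 9 were tested, and 1 was higher in CAF-1 OFF (median 0.07) against 7 in HOXA9 OFF cells (median 1.00), with 0 lower in either. The 1 gene was vinculin (Vcl), at 37.0 and 38.8 CPM in uninduced, 58.3 and 64.2 in CAF-1 OFF and 142 and 111 in HOXA9 OFF cells. Between the 2 induced states 7 of the 9 were called lower in CAF-1 OFF and 0 higher (median -1.02, against 0.04 over all genes), where 21.4% of all tested genes were called lower and 22.2% higher. Of 13 cytoskeleton and signalling genes 9 were tested, with 2 higher in CAF-1 OFF (median 0.22) and 8 higher and 1 lower in HOXA9 OFF cells (median 1.55). The actin-binding Tpm4 rose from 57.1 and 62.4 CPM to 211 and 213 in CAF-1 OFF (edgeR FDR 0.00568), and Actn1 by 0.81 ± 0.20 on the log2 scale (edgeR FDR 0.0272). Among 5 integrin chains, Itga2 of the collagen receptor was the only one called in CAF-1 OFF cells (median 0.20), at 0.0890 and 0.0855 CPM in uninduced and 1.05 and 0.888 in CAF-1 OFF, at least 7.27-fold (edgeR FDR 0.0159), and Itgav the only one in HOXA9 OFF cells (median 0.15, and -0.12 without HOXA9 OFF replicate 2). In IPTG control cells Itga2 was at 0.353 and 0.123 CPM, and CAF-1 OFF cells did not pass against them (log2 2.03, edgeR FDR 0.0598).

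Of 10 transcription factors of the lineage, all tested, 2 were higher in CAF-1 OFF (median 0.27), and 6 higher and 2 lower in HOXA9 OFF cells (median 0.85). Over all genes 10.5% were higher in CAF-1 OFF, and 25.2% higher and 22.1% lower in HOXA9 OFF cells. Gfi1b, a repressor needed for megakaryocyte and erythroid development, was at 0.756 and 0.385 CPM in uninduced, 0.706 and 0.184 in IPTG control, 18.04 and 35.2 in CAF-1 OFF and 5.32 and 3.17 in HOXA9 OFF cells. Its log2 fold change was 5.53 ± 0.61 in CAF-1 OFF (edgeR FDR 0.00324) and 2.88 ± 0.59 in HOXA9 OFF cells (edgeR FDR 0.0039), a difference of 2.65 ± 0.51 (edgeR FDR 0.00356). Runx1 was at 35.7 and 39.5 CPM in uninduced, 64.0 and 67.8 in CAF-1 OFF and 121 and 125 in HOXA9 OFF cells (edgeR FDR 0.00543 and 1.95e-05). Gata1, named here after its values were seen, was at 5.29 and 1.84 CPM in uninduced, 9.31 and 9.61 in CAF-1 OFF and 19.6 and 10.8 in HOXA9 OFF cells (edgeR FDR 0.113, not called, and 0.0145). Of the 18 genes of these lists that were called in CAF-1 OFF cells with libraries that did not overlap, Cxcl3 and Cxcl2 included, 17 lost it when uninduced replicate 1 or uninduced replicate 2 was left out, and Gfi1b kept it whichever library was left out. Over all genes the number called higher fell from 1378 to 138 without uninduced replicate 1 and to 540 without uninduced replicate 2. Against IPTG control cells 13 of the 18 were called, and Cd36, Pecam1, Pdgfb, Itga2 and Cxcl2 were not. Pecam1 had an edgeR FDR of 0.0226 at a log2 fold change of 0.57, under the 1.5-fold limit, and the others 0.0598 to 0.093. Over all tested genes 9.56% were called higher there. The 18 had been picked by their call in the same CAF-1 OFF libraries, so this count is no independent support. Of the 14 of them called in HOXA9 OFF cells, 11 kept it, and Cd36, Tpm4 and Cxcl2 did not.

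**Figure D5:**
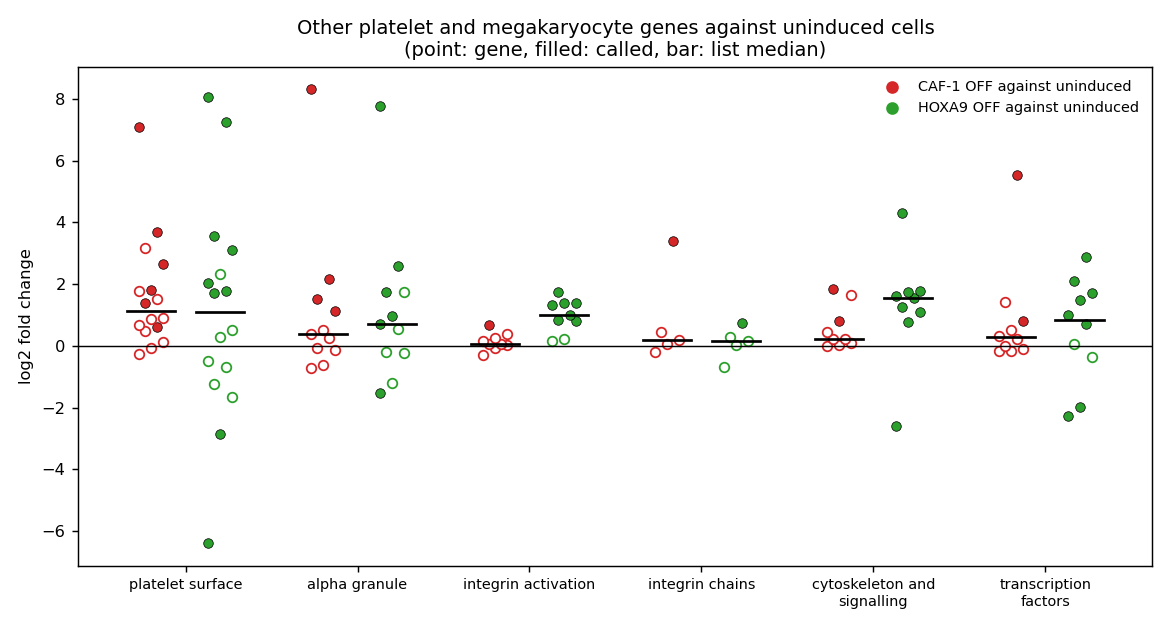
log2 fold change against uninduced cells (vertical axis) of the tested genes of 6 further lists in CAF-1 OFF (left of each pair) and HOXA9 OFF cells (right), filled where called, with a bar at the list median; points of genes near 0 counts in a group are fitted values and no bounds. The integrin activation and cytoskeleton medians are 0.07 and 0.22 in CAF-1 OFF and 1.00 and 1.55 in HOXA9 OFF cells, while the platelet surface medians are 1.14 and 1.11.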

How the data were processed

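RNA of the 8 libraries was extracted with an RNeasy kit and prepared with an NEB RNA-seq kit, per the labels. The authors used STAR with mm9 for alignment and HTSeq-count for gene counts; the strand setting and the annotation are not given in the sources used here. What was deposited is 1 file per library of unnormalized counts by gene symbol, not pooled. Reads outside genes, kept apart from the genes, were 5.30% to 14.6% (IPTG control replicate 1) of reads outside genes, in genes or ambiguous.

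Counts were analysed in R 4.3.3 with edgeR 4.0.16: filterByExpr, TMM, 1 quasi-likelihood fit of all 8 libraries with a mean per group, and Benjamini-Hochberg adjustment over 13080 genes. Genes were called at FDR under 0.05 with a fold of 1.5 or more, the thresholds the study used. The standard error came from the F statistic, and log2 CPM had a prior count of 2. Folds against a group with at most 3 counts in both libraries were computed against 3 counts in its smaller library. Alternatives were DESeq2 1.42.0, the edgeR exact test, glmTreat, other scalings, filters and thresholds, fits of only the groups compared, a replicate block and leaving out each library; a lone library was then assumed to vary like the other groups. Exon lengths and mm9 spans came from GENCODE vM1. The code was tested on simulated data. The members and gene lists were chosen with earlier results of these data known. Text names all members; from the wider lists, genes called in CAF-1 OFF against uninduced cells with libraries that did not overlap (at most 6 a list); the chemokine cluster and Itgav; overlapping genes; and the 5 genes most like Pf4 and Itga2b. Promoters are RefSeq's (GRCm38.p6). Figures were drawn with matplotlib. Some genes of these lists count in the list totals but are not reported here by name.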

Additional observations from a re-analysis of the deposited data

Results flagged for a closer look

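Of the 7 tested members, 4 were called between CAF-1 OFF and HOXA9 OFF cells by edgeR's quasi-likelihood test. Over all tested genes 22.2% were called higher in CAF-1 OFF and 21.4% lower. It is also the test of whether the 2 changes from the shared uninduced control differ. In a fit of only these 2 groups Itgb3 alone was called (edgeR FDR 0.0954 for Pf4, 0.0671 for Gp9 and 0.118 for Vwf). Pf4 differed by 3.02 on the log2 scale and Gp9 by 0.85, both higher in CAF-1 OFF cells. Itgb3 differed by -1.03 and Vwf by -4.34, both lower in CAF-1 OFF cells. The Vwf difference was 1.02 without HOXA9 OFF replicate 2. Groups of 2 libraries are too small for a search for single outlying values within a group.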

How the results depend on the processing

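With other scalings or filters the number of members called stayed within 1.5 times of the reported number in every comparison, and it was 0 for IPTG control cells under every alternative. With FDR 0.01 and 2-fold, 2 members were called in HOXA9 OFF against uninduced cells, 2 in CAF-1 OFF against IPTG control and 1 in CAF-1 OFF against HOXA9 OFF cells, where 15.8%, 2.03% and 11.2% of all genes were called higher and 11.5%, 0.13% and 11.8% lower. In the last comparison 1 was called by glmTreat and 1 in a fit of only the groups compared, Itgb3 in both (lower, as were 14.3% and 20.5% of all genes). Leaving out single libraries changed the number of members called in every comparison but IPTG control against uninduced cells. The number of all genes called changed in the same fits, most in those of CAF-1 OFF against uninduced or IPTG control cells. Without HOXA9 OFF replicate 2, 3 values reversed: Pf4 in HOXA9 OFF against uninduced cells to -1.19, and Ppbp and Vwf between CAF-1 OFF and HOXA9 OFF cells to 1.56 and 1.02. Without HOXA9 OFF replicate 1 the same 3 values were 2.86, -2.39 and -5.33. Of 455 alternative values of single members, 381 kept direction and side of the threshold, 51 lost the call, 20 gained it and 3 reversed; the cause was not tested. These leave out IPTG control against uninduced cells, Gp1ba except in HOXA9 OFF against uninduced cells, and Itga2b between CAF-1 OFF and HOXA9 OFF cells, which was not called (-0.18) and was 0.06 with library size only and 0.07 without CAF-1 OFF replicate 2. What a shared replicate number stands for is not in the labels, and the numbers were not taken as pairs: deviations of same-numbered libraries correlated at 0.48 (uninduced with IPTG control), 0.30 and 0.32 (these with HOXA9 OFF) and between -0.044 and 0.076 for CAF-1 OFF with the rest. With the replicate block, 4, 6, 0, 4 and 3 members were called in the 5 comparisons, the lost call being Vwf between CAF-1 OFF and HOXA9 OFF cells (log2 -3.26, FDR 0.0607), and 1602 genes rose in CAF-1 OFF against uninduced cells in place of 1378. Counts were low for some members in uninduced cells: Gp1bb and Gp5 had 0 in both libraries, Ppbp 8 and 0, and Vwf 6 and 5. Whether depth set their calls was not tested. At this depth Ppbp and Vwf gained a call in CAF-1 OFF against uninduced cells in a fit of only these groups (edgeR FDR 0.0297 and 0.0319).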

Other observations

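Among the transcription factors, chosen after their values were seen, Zfpm1 (FOG1, the partner of GATA1) and Tal1 went down in HOXA9 OFF cells while Gata1, Fli1 and Nfe2 went up. Zfpm1 was at 41.4 and 44.2 CPM in uninduced, 56.8 and 50.6 in CAF-1 OFF and 9.06 and 8.82 in HOXA9 OFF cells (edgeR FDR 1.67e-05 for HOXA9 OFF against uninduced), and Tal1 at 69.6 and 72.1, 73.4 and 53.8, and 19.7 and 16.1 (edgeR FDR 6.6e-05). Fli1 was at 78.9 and 62.5, 83.7 and 81.0, and 153 and 128 CPM (edgeR FDR 0.00306), and Nfe2, a late megakaryocyte regulator, at 197.7 and 154, 170.5 and 155, and 327.5 and 246 CPM (edgeR FDR 0.0143). Neither was called in CAF-1 OFF cells. Tubb1, the platelet beta-tubulin, was at 0 in all uninduced, IPTG control and CAF-1 OFF libraries and at 0.434 and 0.496 CPM in the HOXA9 OFF libraries, too low to be tested.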
